A study of Homo sapiens with 6 samples.

Results

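The 10 genes described here make up the core of the cellular oxygen-sensing pathway. They are the hypoxia-inducible factor (HIF) subunits HIF1A, EPAS1 and ARNT, the ubiquitin ligase component VHL, the oxygen-dependent hydroxylases EGLN1, EGLN2, EGLN3 and HIF1AN, and the repressors BHLHE40 and MXI1. They were chosen by name, as parts of a known pathway and with earlier results of these data known, from a table of 35035 genes, and all 10 were found in it. The table comes from 6 RNA sequencing libraries of HK-2, a human kidney line that was derived from proximal tubule and immortalised. The cells of 3 libraries had been transfected with empty vector (genotype label WT) and those of the other 3 with a plasmid that overexpresses circAASS (genotype label circAASS-overexpressed); the name stands for a circular transcript of AASS. Both groups had spent 24 h at 1% oxygen, followed by 12 h of reoxygenation, so that every library had gone through hypoxia and none served as a normoxic reference. The series' own design text puts the profiling at 24 h after that treatment; the 12 h of the sample labels is used here. The labels name neither the promoter of the plasmid nor separate passages for the repeats, so that p-values measure only how far these libraries spread, which may be technical.

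An active HIF is a pair of proteins, an oxygen-labile alpha subunit (HIF1A or EPAS1) and the stable beta subunit ARNT. In the presence of oxygen the prolyl hydroxylases EGLN1, EGLN2 and EGLN3 modify the alpha subunit, VHL recognises the modified protein and the alpha subunit is degraded, while HIF1AN hydroxylates an asparagine and blocks the binding of coactivators. This control acts on protein, which RNA sequencing does not measure. EGLN1, EGLN3, BHLHE40 and MXI1 are themselves known HIF target genes, and in kidney tubules HIF drives the switch to glycolysis and the release of vascular growth factors under low oxygen.

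The RefSeq promoter windows (GRCh38.p14, 250 bases before the start site and 50 after it) of the 5 genes that passed the test between the groups are shown first, 1 window for each, because HIF and the repressor BHLHE40 read short motifs in such windows. Sequences run 5′ to 3′ on the strand of the gene, and capitals mark matches, on either strand, to the HIF core motif (ACGTG or GCGTG) and to the E-box CACGTG, a site of BHLHE40 and of MXI1 with its partner MAX that contains ACGTG on both strands.
BHLHE40: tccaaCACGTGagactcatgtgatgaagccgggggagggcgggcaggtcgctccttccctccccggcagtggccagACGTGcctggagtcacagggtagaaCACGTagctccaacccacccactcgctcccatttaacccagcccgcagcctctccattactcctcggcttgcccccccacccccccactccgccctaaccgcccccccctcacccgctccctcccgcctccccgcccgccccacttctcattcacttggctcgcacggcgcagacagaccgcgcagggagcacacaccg
EGLN2: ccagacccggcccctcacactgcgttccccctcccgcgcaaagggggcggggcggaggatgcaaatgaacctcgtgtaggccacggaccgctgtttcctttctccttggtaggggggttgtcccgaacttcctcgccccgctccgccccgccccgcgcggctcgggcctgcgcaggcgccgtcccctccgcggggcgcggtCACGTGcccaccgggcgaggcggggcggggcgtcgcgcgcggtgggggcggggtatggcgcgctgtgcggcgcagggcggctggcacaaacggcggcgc
EGLN1: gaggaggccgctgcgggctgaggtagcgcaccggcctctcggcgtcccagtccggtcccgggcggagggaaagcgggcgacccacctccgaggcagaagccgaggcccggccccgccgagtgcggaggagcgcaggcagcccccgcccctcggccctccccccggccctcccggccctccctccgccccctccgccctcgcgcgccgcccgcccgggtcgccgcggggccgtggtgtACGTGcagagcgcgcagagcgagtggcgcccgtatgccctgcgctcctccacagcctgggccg
HIF1A: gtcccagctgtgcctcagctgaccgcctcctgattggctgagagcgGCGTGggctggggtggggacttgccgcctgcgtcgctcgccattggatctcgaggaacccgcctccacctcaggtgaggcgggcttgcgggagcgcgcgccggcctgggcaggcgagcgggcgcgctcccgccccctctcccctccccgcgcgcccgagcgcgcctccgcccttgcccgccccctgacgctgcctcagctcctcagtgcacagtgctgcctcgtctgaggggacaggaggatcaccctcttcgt
ARNT: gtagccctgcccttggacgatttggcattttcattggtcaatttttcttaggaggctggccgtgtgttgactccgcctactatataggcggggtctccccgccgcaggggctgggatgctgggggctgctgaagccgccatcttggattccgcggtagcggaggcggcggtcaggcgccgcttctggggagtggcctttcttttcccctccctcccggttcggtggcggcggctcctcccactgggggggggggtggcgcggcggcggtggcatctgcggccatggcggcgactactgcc

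The BHLHE40 window (chr3:4979187-4979486, plus strand) held an E-box that began 245 bases before the start site and further ACGTG matches that began 174 and 149 bases before it. The EGLN2 window shown (chr19:40798941-40799240, plus strand) held 1 E-box, 49 bases before the start. The EGLN1 window (chr1:231422238-231422537, minus strand) held 1 ACGTG, 13 bases before the start, and the HIF1A window shown (chr14:61695263-61695562, plus strand) 1 GCGTG, 204 bases before it. HIF1A and EGLN2 each have another RefSeq window (chr14:61697462-61697761 and chr19:40799272-40799571), not shown, which held none of these motifs. The ARNT window (chr1:150876550-150876849, minus strand) held none of these motifs. Among the genes that were not called, windows of EPAS1 and MXI1 held a HIF core motif, whereas those of HIF1AN and EGLN3 held none. A further MXI1 window (chr10:110207355-110207654) held none either. RefSeq windows were matched for 9 of the 10 genes, all but VHL, and 7 of their 13 windows (53.8%) held ACGTG or GCGTG. Of all 35116 RefSeq windows of 300 bases, 48.4% held one of these, 21.4% ACGTG, 36.5% GCGTG and 7.26% the E-box. A match is a description of the letters and not evidence of binding.

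The deposited values were RPKM, reads per kilobase of gene scaled to the size of the library, so that levels can be set side by side between genes. Library totals, worked out from the values, were 45148425 to 58179563 reads, apparently with mates of a pair counted separately. Each gene here except EGLN3 rested on at least 981 reads in every library. Markers of the labelled cell type were present in part. The proximal tubule markers GGT1, SLC5A2 and PAX8 had a mean of at least 1 RPKM, whereas 5 of the 12 listed, among them LRP2 and CUBN, stayed under 0.1 RPKM in every library. Markers of endothelium summed to at most 0.0993 RPKM in any library, and those of thick limb, distal tubule and collecting duct to at most 0.0604. Of 5 listed RNAs without a poly(A) tail, RN7SK, RN7SL1 and RN7SL2 were higher with the plasmid. RPPH1 stood at 58.4 RPKM with the vector and 58.3 with the plasmid and did not pass (limma adjusted p = 0.542). RMRP was not tested, and the RN7SK call was lost under 4 of 14 alternative settings. RN7SK measured 44.7, 34.1 and 37.0 RPKM with the vector, and 55.6, 135 and 190 RPKM with the plasmid. The summed level of the 5 such RNAs listed was 103 to 125 RPKM in the former and 144 to 292 in the latter. Marker sums also differed with the group: 51.3 to 51.9 against 61.9 to 67.4 RPKM for the 12 proximal tubule genes, 228 to 242 against 262 to 294 for 4 epithelial genes (mostly KRT8 and KRT18), 7.45 to 7.70 against 4.83 to 5.06 for 3 podocyte genes (nearly all SYNPO) and 102 to 106 against 78.6 to 101 for 4 leukocyte genes (nearly all CD68). These sums are of RPKM as deposited. CD68 itself did not pass (log2 fold change -0.16, limma adjusted p = 0.212), and after scaling its groups overlapped. The genes of a list did not all move 1 way. Of the proximal tubule markers PAX8 rose from 25.0 to 42.3 RPKM, whereas GGT1 fell from 9.25 to 7.11 and SLC5A2 from 3.85 to 1.87. Among the epithelial markers KRT8 rose from 127 to 149 and KRT18 from 79.3 to 107, EPCAM fell from 26.8 to 22.1, and CDH1 stood at 0.0659 and 0.0219 and did not pass. The EPCAM call was lost under 7 of 14 alternative settings. The part of these differences in the results below was not tested, and in bulk RNA fewer cells of a kind and less RNA per cell cannot be told apart. The circular RNA itself was not matched in a table of genes, so that the overexpression could not be checked here. The host gene AASS stood at 1.20, 1.38 and 1.10 RPKM with empty vector and at 0.836, 0.977 and 0.827 with the plasmid (limma adjusted p = 0.0677).

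The comparison asked which of the 10 genes differ in RNA level between the plasmid and the vector cells. HIF1A, EGLN1 and EGLN2 were higher with the circAASS plasmid and BHLHE40 and ARNT were lower. EPAS1, VHL, HIF1AN and MXI1 did not pass the test, and EGLN3 was too low to be tested. Thus 5 of 9 tested genes were called, 3 higher and 2 lower (limma, Benjamini-Hochberg adjusted p under 0.05 over 19350 genes). Across all tested genes 32.3% were called, 16.0% higher and 16.3% lower, so that calls were frequent in this comparison. The deposited RPKM of the groups did not overlap in 7 of the 9 genes, against 47.5% of all tested genes. After the libraries had been scaled with trimmed-mean factors, as for the test, this held for 6 of the 9, against 47.9%. All fold changes below are on the log2(RPKM + 0.1) scale after this scaling, so that they differ from the ratio of the deposited means, and the added 0.1 RPKM understates the change of genes at low levels.

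**Figure D1:**
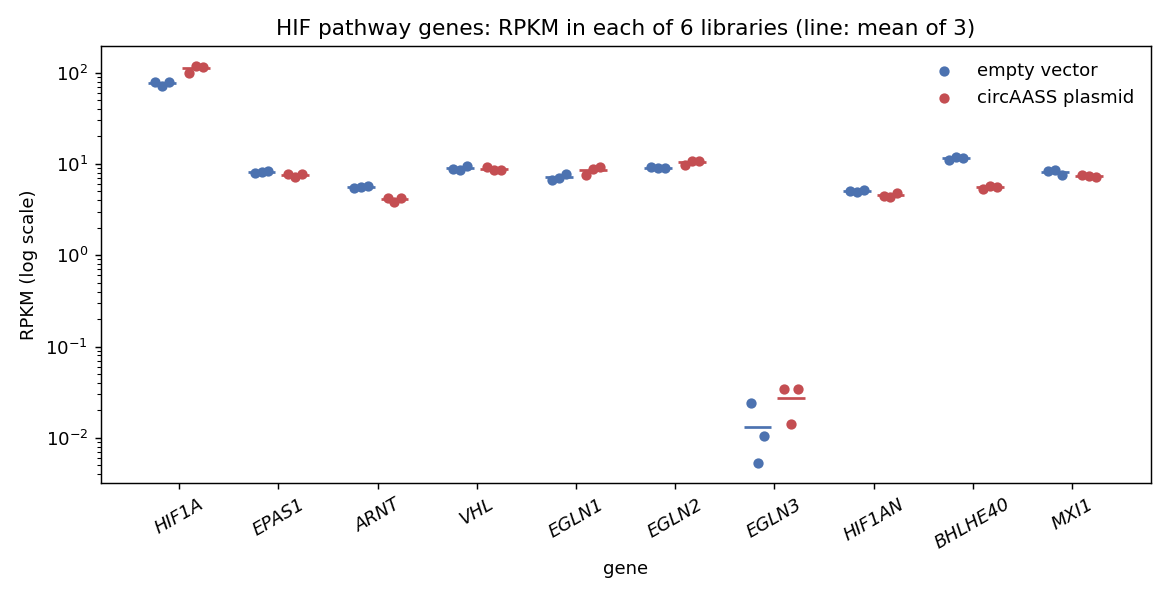
RPKM (log axis) of the 10 genes in each of 3 empty-vector (blue) and 3 circAASS (red) libraries; the lines are means. HIF1A lies far above the other genes, EGLN3 far below them, and BHLHE40 shows the widest gap between the groups, 11.1 to 11.9 RPKM against 5.33 to 5.67.

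HIF1A, the widely expressed alpha subunit, was by far the most abundant of the 10 (chromosome 14, 61695513 to 61748259, GRCh38). Its level stood at 79.1, 71.3 and 78.2 RPKM with empty vector and at 98.7, 119 and 116 RPKM with the circAASS plasmid, from 18393 to 35795 reads per library. All 3 circAASS libraries were above all 3 empty-vector libraries, and circAASS library 1, which also had the lowest RN7SK of its group, was the lowest of the 3. In circAASS libraries 2 and 3 the order of HIF1A was opposite to that of RN7SK (135 and 190 RPKM), and a link was not tested. The means were 76.2 ± 4.28 and 111 ± 11.2 RPKM (SD over 3 libraries each, as for all means below). HIF1A rose by a log2 fold change of 0.62 (SE 0.08, limma adjusted p = 0.00141), or 1.53-fold, and this call held under all 14 alternative settings, with adjusted p from 0.00102 to 0.00794. The mean level of HIF1A exceeded that of 97.6% of the tested genes.

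EPAS1 encodes the other alpha subunit, also called HIF2A, which in the kidney is known mainly from interstitial and endothelial cells (chromosome 2, 46293667 to 46386703). It stood at 8.06, 8.17 and 8.46 RPKM with empty vector and at 7.67, 7.23 and 7.80 RPKM with the plasmid. The deposited values of the groups did not overlap, whereas after scaling they did. The log2 fold change was -0.05, with a 95% interval from -0.17 to 0.08 (limma adjusted p = 0.522), so that a change of the size seen in HIF1A lies outside the interval. HIF1A thus made up 90.8%, 89.7% and 90.2% of the summed RPKM of the 2 alpha subunits with empty vector and 92.8%, 94.3% and 93.7% with the plasmid. The share was 3.36 percentage points higher with the plasmid and the groups did not overlap. The exact permutation test gave p = 0.1 (two-sided, n = 3 each), the smallest that 3 against 3 libraries allow, and adjusted over the 4 shares examined 0.4. A share within a library does not depend on the scaling between libraries.

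A pair of antisense RNAs lies at the HIF1A locus. HIF1A-AS1 (chromosome 14, 61681041 to 61695823) starts across the HIF1A promoter and shares 17.9% of its own exon bases with HIF1A. It had 853, 781 and 906 reads in the vector cells against 1048, 1155 and 1039 in the plasmid cells, or means of 26.3 ± 2.75 and 32.5 ± 1.80 RPKM (log2 fold change 0.38, SE 0.08, limma adjusted p = 0.0128). HIF1A-AS2 (chromosome 14, 61715558 to 61751097), which runs against the body and end of HIF1A without sharing exon bases in GENCODE 29, stood at 2.99, 3.09 and 4.72 RPKM with empty vector and at 8.88, 7.97 and 8.35 with the plasmid. Its log2 fold change of 1.30 (SE 0.16, limma adjusted p = 0.00151) was larger than that of HIF1A, and in both antisense RNAs the groups did not overlap. Both calls held under all 14 alternatives. Whether the counting used strand is not given in the sources used here, so reads of HIF1A and of RNAs antisense to it cannot be told apart with certainty. HIF1A-AS1 shares 2.3% of the exon bases of HIF1A, and AL137129.1, on the same strand as HIF1A, 2.9%.

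ARNT, the constitutive partner of both alpha subunits, went the other way (chromosome 1, 150809705 to 150876768). It stood at 5.51, 5.57 and 5.73 RPKM with empty vector and at 4.29, 3.87 and 4.27 RPKM with the plasmid. All circAASS libraries lay below all empty-vector libraries, and the means were 5.60 ± 0.110 and 4.14 ± 0.240 RPKM. ARNT fell by 0.36 on the log2 scale (SE 0.07, limma adjusted p = 0.00632), and the call held under all 14 alternatives. In consequence the RPKM of HIF1A per RPKM of ARNT was 14.3, 12.8 and 13.7 in the vector libraries, against 23.0, 30.9 and 27.2 in the plasmid libraries. This ratio was computed after the values of both genes had been seen and was not tested.

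**Figure D2:**
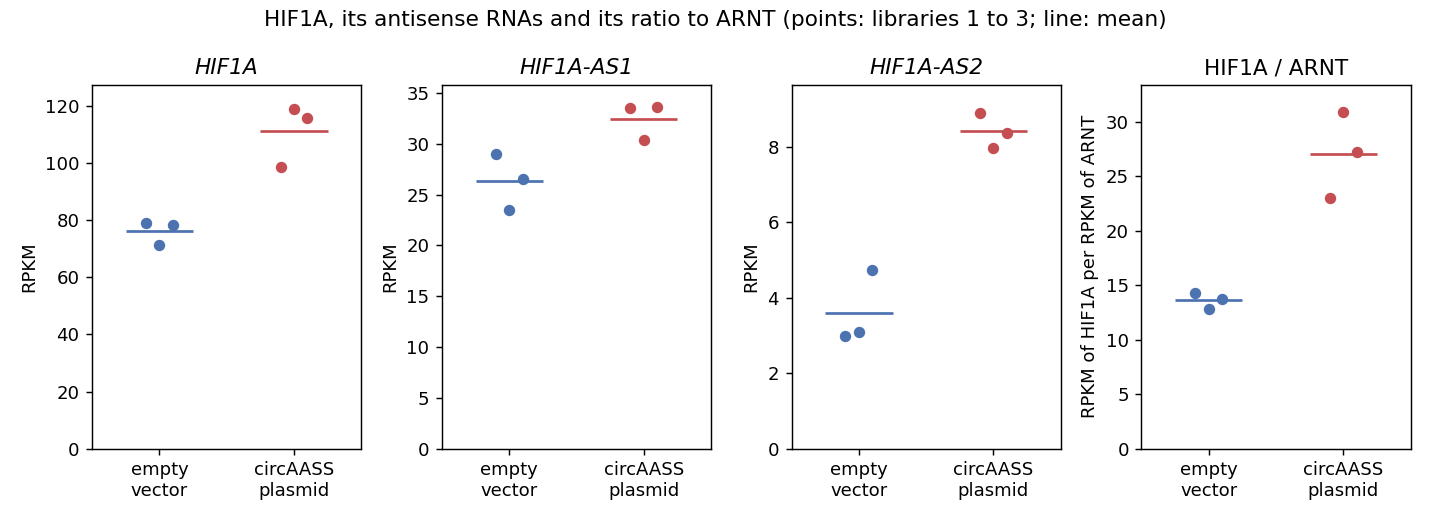
Left to right: RPKM of HIF1A, of its antisense RNAs HIF1A-AS1 and HIF1A-AS2, and the ratio of HIF1A to ARNT RPKM in each library (points; lines are means of 3); each axis starts at 0. In all panels the 3 circAASS libraries lie above the 3 empty-vector libraries, with mean ratios of 13.6 and 27.0 in the last panel.

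Among the prolyl hydroxylases, EGLN1 and EGLN2 were higher with the circAASS plasmid and EGLN3 was close to absent. EGLN1, the main regulator of HIF1A in normal oxygen, stood at 6.73, 7.05 and 7.67 RPKM with empty vector and at 7.65, 8.72 and 9.15 with the plasmid (chromosome 1, 231363751 to 231425044). The deposited values touch, since circAASS library 1 lay just below empty-vector library 3; after scaling the groups did not overlap. EGLN1 rose by a log2 fold change of 0.32 (SE 0.07, limma adjusted p = 0.0157). This call was the least stable of the 5. It was lost with scaling by library size alone (adjusted p = 0.0596), without empty-vector library 1 (0.0526) or 2 (0.0537), and without circAASS library 3 (0.0544), always with the same direction.

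EGLN2, a prolyl hydroxylase that is itself not induced by hypoxia, stood at 9.23, 8.97 and 9.04 RPKM with empty vector and at 9.84, 10.9 and 10.7 with the plasmid (chromosome 19, 40798996 to 40808433). The groups did not overlap, and the log2 fold change of 0.28 (SE 0.05, limma adjusted p = 0.00822) kept its call under all 14 alternatives. Its reads are uncertain, since the read-through gene RAB4B-EGLN2 covers 30.6% of its exon bases. That gene was itself listed at 20.5 to 21.6 RPKM with empty vector and 23.6 to 26.1 with the plasmid (log2 fold change 0.32, limma adjusted p = 0.00352), although in GENCODE 29 every one of its exon bases belongs to another gene as well.

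EGLN3, which is strongly induced by HIF in many cell types, was represented by 8, 2 and 4 reads with empty vector and by 12, 6 and 12 with the plasmid, and was not tested (chromosome 14, 33924231 to 34462774). These reads correspond to 0.0241, 0.00533 and 0.0104 RPKM and to 0.0340, 0.0140 and 0.0344 RPKM, so the groups overlapped. EGLN1 made up 44.0% ± 1.87 of the summed prolyl hydroxylase RPKM with empty vector and 44.7% ± 1.20 with the plasmid, EGLN2 55.9% ± 1.83 and 55.2% ± 1.21, and EGLN3 0.0820% ± 0.0612 and 0.146% ± 0.0656 (SD, n = 3 each). None of these shares separated the groups (exact permutation test, two-sided, n = 3 each, p = 0.6, 0.5 and 0.2, adjusted over the 4 shares 0.6, 0.6 and 0.4). Without empty-vector library 1 the difference turned its sign for EGLN1 (-0.254 percentage points) and EGLN2 (0.155).

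VHL, the substrate receptor of the ligase that marks hydroxylated alpha subunits for degradation, did not pass the test (chromosome 3, 10141008 to 10152220). It stood at 8.85, 8.68 and 9.59 RPKM with empty vector and at 9.23, 8.53 and 8.52 with the plasmid, and the groups overlapped. Its log2 fold change was 0.03 with a 95% interval from -0.13 to 0.18 (limma adjusted p = 0.774). Its sign turned with scaling by library size alone (-0.04) and without circAASS library 1 (-0.02).

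HIF1AN, the asparaginyl hydroxylase known as FIH, did not pass either (chromosome 10, 100529072 to 100559998). It stood at 5.08, 4.96 and 5.18 RPKM with empty vector and at 4.49, 4.36 and 4.78 with the plasmid. The groups did not overlap before or after scaling, yet the log2 fold change of -0.08 (95% interval -0.22 to 0.05, limma adjusted p = 0.311) was within the error of the test. NDUFB8, which overlaps 2.3% of its exon bases on the opposite strand, stood at 61.4 ± 4.38 and 57.9 ± 1.92 RPKM.

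BHLHE40, a basic helix-loop-helix repressor that HIF induces and that in turn dampens transcription, showed the largest and most certain difference of the 10 (chromosome 3, 4979116 to 4985323). It stood at 11.1, 11.9 and 11.5 RPKM with empty vector and at 5.33, 5.67 and 5.57 with the plasmid, from 1926 to 2324 and from 981 to 1266 reads. The groups were far apart, and within each the libraries differed little, with means of 11.5 ± 0.378 and 5.52 ± 0.175 RPKM. BHLHE40 fell by 0.97 on the log2 scale (SE 0.05, 95% interval -1.10 to -0.85, limma adjusted p = 0.000115), to 0.510 of the empty-vector level. Ranked by p it was at place 30 of 19350 tested genes. Under the alternatives the log2 fold change lay between -1.04 and -0.87 and the adjusted p was at most 0.00148. With empty vector BHLHE40 stood at place 2 of the 10 genes by level, after HIF1A, and with the plasmid at place 7.

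The antisense gene BHLHE40-AS1, which touches 0.1% of the exon bases of BHLHE40, stood at 0.432, 0.584 and 0.582 RPKM with empty vector and at 0.430, 0.272 and 0.295 with the plasmid and did not pass (log2 fold change -0.50, limma adjusted p = 0.0963). The genes with the pattern most like that of BHLHE40 over the 6 libraries, among 13341 others with a mean of at least 1 RPKM, were TSPOAP1 (Pearson r = 0.999), HLCS (0.9988) and CDH6 (0.9987). TSPOAP1 went from 2.08 to 0.860 RPKM, HLCS from 2.01 to 0.941 and CDH6, a tubular cadherin, from 13.5 to 4.89. A correlation of at least 0.99 was reached by 193 genes; over 2 groups of 3 libraries r rests mainly on the gap between the groups.

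MXI1, a repressor that pairs with MAX and opposes MYC, and that HIF can induce, stood at 8.35, 8.57 and 7.64 RPKM with empty vector and at 7.58, 7.40 and 7.17 with the plasmid (chromosome 10, 110207605 to 110287365). The deposited values did not overlap, the scaled ones did. The log2 fold change was -0.07 (95% interval -0.23 to 0.09, limma adjusted p = 0.448). Among the 2 repressors the fall was thus measured in BHLHE40, and in MXI1 a fall of that size lies outside the interval.

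**Figure D3:**
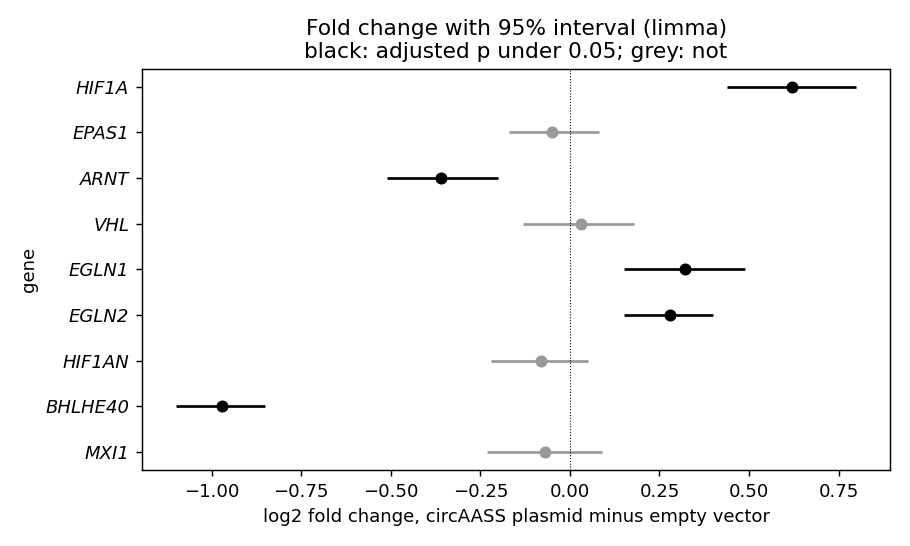
Log2 fold change of the 9 tested genes (points) with 95% intervals from limma (lines); black marks an adjusted p under 0.05. HIF1A (0.62), EGLN1 (0.32) and EGLN2 (0.28) lie above 0, ARNT (-0.36) and BHLHE40 (-0.97) below it, and the intervals of EPAS1, VHL, HIF1AN and MXI1 include 0.

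In the order of levels with empty vector, HIF1A and BHLHE40 were followed by EGLN2, VHL, EPAS1, MXI1, EGLN1, ARNT, HIF1AN and EGLN3. The ranges of EGLN2 and VHL over the libraries overlapped, as did those of EPAS1 with MXI1 and MXI1 with EGLN1. Differences between neighbours were not tested. With the plasmid the order was HIF1A, EGLN2, VHL, EGLN1, EPAS1, MXI1, BHLHE40, HIF1AN, ARNT and EGLN3, and the neighbours from VHL to MXI1 overlapped. Apart from HIF1A and EGLN3, all mean levels lay between 4.14 and 11.5 RPKM.

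Other genes of the pathway were counted in 9 lists, without the 10 genes above. Of 150 genes tested in all, 43 rose and 25 fell. The median log2 fold change over all tested genes was -0.01, and each list's count and median are given as a description beside this and beside the 32.3% called overall. Without empty-vector library 2 the number called was 42 in place of 68, and 4133 in place of 6243 over all tested genes.

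Genes of proteins that resemble the subunits were called in 37.5% of cases, near the 32.3% of all tested genes. Of 8 tested relatives 3 rose, none fell and 5 did not pass (median 0.24), whereas with library size alone 1 rose and 1 fell. The genes that rose were the clock factors ARNTL, from 1.52 ± 0.185 to 2.20 ± 0.218 RPKM, and CLOCK, with a log2 fold change of 0.27, and the dioxin receptor AHR, from 2.33 ± 0.0773 to 2.74 ± 0.149, which shares 32.3% of its exon bases with other genes. Only ARNTL was called under every alternative; without empty-vector library 2 it was the 1 gene left. The alpha subunit relative HIF3A was at most 0.0151 RPKM in any library and was not tested, as was SIM2. ARNT2, which can stand in for ARNT, stood at 1.15 to 1.53 RPKM and did not pass.

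Of 8 tested partners of VHL in its ubiquitin ligase complex 5 rose, none fell and 3 did not pass (median 0.27). UBE2D1 and UBE2D3, ubiquitin-conjugating enzymes, rose from 8.13 ± 0.136 to 10.6 ± 1.20 and from 18.4 ± 0.702 to 21.5 ± 0.188 RPKM. The scaffold CUL2 rose from 7.38 ± 0.397 to 9.07 ± 1.06, and the elongins TCEB1 and TCEB2 from 6.87 ± 0.478 to 7.95 ± 0.603 and from 13.0 ± 1.32 to 14.7 ± 1.06. The log2 fold changes were between 0.25 and 0.45, and 2 of the 5, the conjugating enzymes, kept their calls under every alternative. Without empty-vector library 2 only 2 passed, and with library size alone 3. VHL itself, as given above, did not pass.

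Of 19 coactivators and other modulators of HIF protein 5 rose, 1 fell and 13 did not pass (median 0.08). SIAH2, a ubiquitin ligase that targets prolyl hydroxylases, rose from 3.86 ± 0.255 to 6.06 ± 0.982 RPKM (log2 fold change 0.70), the glycolytic enzyme PKM from 141 ± 2.61 to 179 ± 9.03 and the chaperone HSP90AA1 from 997 ± 4.58 to 1133 ± 51.4. CITED2, which competes with HIF1A for the coactivator EP300, rose from 30.7 ± 1.13 to 36.2 ± 4.17, and EP300 from 5.24 ± 0.241 to 5.88 ± 0.400. WSB1, a ubiquitin ligase receptor that HIF induces, fell from 9.93 ± 0.910 to 7.01 ± 0.842. PKM, SIAH2 and HSP90AA1 were called under every alternative, and without empty-vector library 2 these 3 remained. With library size alone 3 rose and 3 fell.

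Other dioxygenases moved in both directions. Most of those listed use oxygen and oxoglutarate, as the EGLN enzymes do, whereas ADO, a thiol dioxygenase, uses oxygen without oxoglutarate. Of 24 tested 8 rose, 5 fell and 11 did not pass (median 0.08), and with library size alone 5 rose and 7 fell. Subunits of the collagen prolyl hydroxylase were among both. P4HA3 rose from 12.3 ± 0.335 to 23.1 ± 1.51 RPKM (log2 fold change 0.97) and P4HA2 from 29.5 ± 1.13 to 38.5 ± 0.874, whereas P4HA1 fell from 27.7 ± 3.44 to 21.0 ± 0.468. JMJD6 rose from 7.51 ± 0.0876 to 10.5 ± 0.477 and the RNA demethylase ALKBH5 from 8.29 ± 0.496 to 9.73 ± 0.198. The lysyl hydroxylase PLOD1 fell from 14.4 ± 0.430 to 10.5 ± 0.166, the transmembrane prolyl hydroxylase P4HTM from 0.565 ± 0.0468 to 0.260 ± 0.0382, and the histone demethylases KDM4B and KDM3B from 2.95 to 2.25 and from 13.7 to 10.9. Of the 13 called, 7 kept their calls under every alternative, and without empty-vector library 2 there were 5 that rose and 2 that fell.

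Of 17 tested genes of the MAX network, in which MXI1 acts, and the BHLHE40 relative BHLHE41, 6 rose, 2 fell and 9 did not pass (median 0.17). MLX rose from 14.5 ± 0.541 to 18.2 ± 0.569 RPKM, the MXI1 relative MXD1 by a log2 fold change of 0.38, MYC from 32.7 ± 1.65 to 39.2 ± 3.06 and the deacetylase HDAC2 from 24.2 ± 1.07 to 27.0 ± 1.82. BHLHE41 fell from 8.03 ± 0.166 to 5.95 ± 0.426 RPKM (log2 fold change -0.36, SE 0.07, limma adjusted p = 0.0106), in the same direction as BHLHE40, and was called under every alternative. MGA, a large MAX partner, fell from 4.46 ± 0.215 to 3.58 ± 0.134. MLX, MXD1 and MYC were also called under every alternative, whereas the HDAC2 call was lost under 9 of 14 and the MGA call under 8. Without empty-vector library 2, 3 rose and 1 fell, and with library size alone 3 rose and 2 fell.

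HIF target genes did not move in 1 direction. Of 23 targets in glucose metabolism 3 rose, 6 fell and 14 did not pass (median 0.03), and with library size alone 2 rose and 9 fell. The hexokinase HK1 rose from 17.8 ± 0.420 to 26.1 ± 0.988 RPKM, the enolase ENO1 from 371 ± 4.65 to 423 ± 15.8 and PGAM1 from 58.8 ± 0.786 to 62.8 ± 2.83. The phosphofructokinase PFKL fell from 11.4 ± 0.256 to 7.57 ± 0.796, ENO2 from 16.7 ± 0.493 to 12.5 ± 0.529, PDK1, which keeps pyruvate out of mitochondria, from 0.799 ± 0.112 to 0.397 ± 0.0234, and PFKFB3 from 31.3 ± 0.608 to 24.1 ± 2.24. Of the 9 called, 7 kept their calls under every alternative.

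Of 31 targets outside glucose metabolism 9 rose, 9 fell and 13 did not pass (median -0.09). The deposited RPKM of the groups, before scaling, did not overlap in 22 of the 31, against 47.5% of all tested genes. With library size alone 8 rose and 12 fell. VEGFA, the vascular growth factor, rose from 7.41 ± 0.439 to 11.9 ± 0.296 RPKM (log2 fold change 0.76), the vasoconstrictor EDN1 from 7.20 ± 0.0658 to 10.7 ± 0.504, P4HA2 as given above, and PPP1R3C, a glycogen-targeting subunit, from 0.976 ± 0.126 to 2.15 ± 0.187 (log2 fold change 1.13, and 0.72 to 1.22 over the alternatives). ZNF395 fell from 6.71 ± 0.104 to 3.67 ± 0.245 (log2 fold change -0.78), NDRG1 from 3.39 ± 0.566 to 1.65 ± 0.0322 (-0.91), the carbonic anhydrase CA9 from 0.396 ± 0.0254 to 0.139 ± 0.0557 (-1.03, and -1.46 to -0.28 over the alternatives) and the lysyl oxidase LOX from 5.88 ± 0.389 to 4.17 ± 0.270 (-0.41). Reads of ZNF395 and CA9 are uncertain, with 34.9% and 38.5% of their exon bases shared with other genes. The 18 calls included 12 that held under every alternative, and without empty-vector library 2 there were 8 that rose and 5 that fell.

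Of 11 tested genes known to lean on EPAS1 3 rose, 2 fell and 6 did not pass (median 0.17). The cyclin CCND1 rose from 31.7 ± 1.68 to 37.4 ± 1.68 RPKM, POU5F1 from 1.94 ± 0.134 to 2.56 ± 0.398, and CITED2 as above; POU5F1 has near-identical copies in the genome and its reads are uncertain. The iron transporters SLC40A1 and SLC11A2 fell from 0.198 ± 0.0419 to 0.0587 ± 0.0262 and from 3.09 ± 0.249 to 2.40 ± 0.123. Only CCND1 was called under every alternative. Without empty-vector library 2, 1 rose and 1 fell, and with library size alone 1 rose and 3 fell. Erythropoietin, EPO, the classical EPAS1 target of the kidney, was at most 0.0317 RPKM and was not tested.

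Of 15 genes that control the synthesis of HIF1A RNA or protein 4 rose, 2 fell and 9 did not pass (median 0.14). The transcription factors NFKB1 and STAT3 rose from 11.8 ± 0.559 to 14.3 ± 0.559 and from 6.97 ± 0.260 to 7.95 ± 0.259 RPKM, the cap-binding protein EIF4E from 5.83 ± 0.224 to 7.07 ± 0.129 and the mTOR activator RHEB from 23.2 ± 0.292 to 27.2 ± 2.83. The transcription factor SP1 fell from 10.1 ± 0.332 to 7.93 ± 0.498 and the RHEB inhibitor TSC2 from 3.51 ± 0.202 to 2.57 ± 0.219. NFKB1, EIF4E, STAT3 and SP1 kept their calls under every alternative, and these 4 passed without empty-vector library 2.

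**Figure D4:**
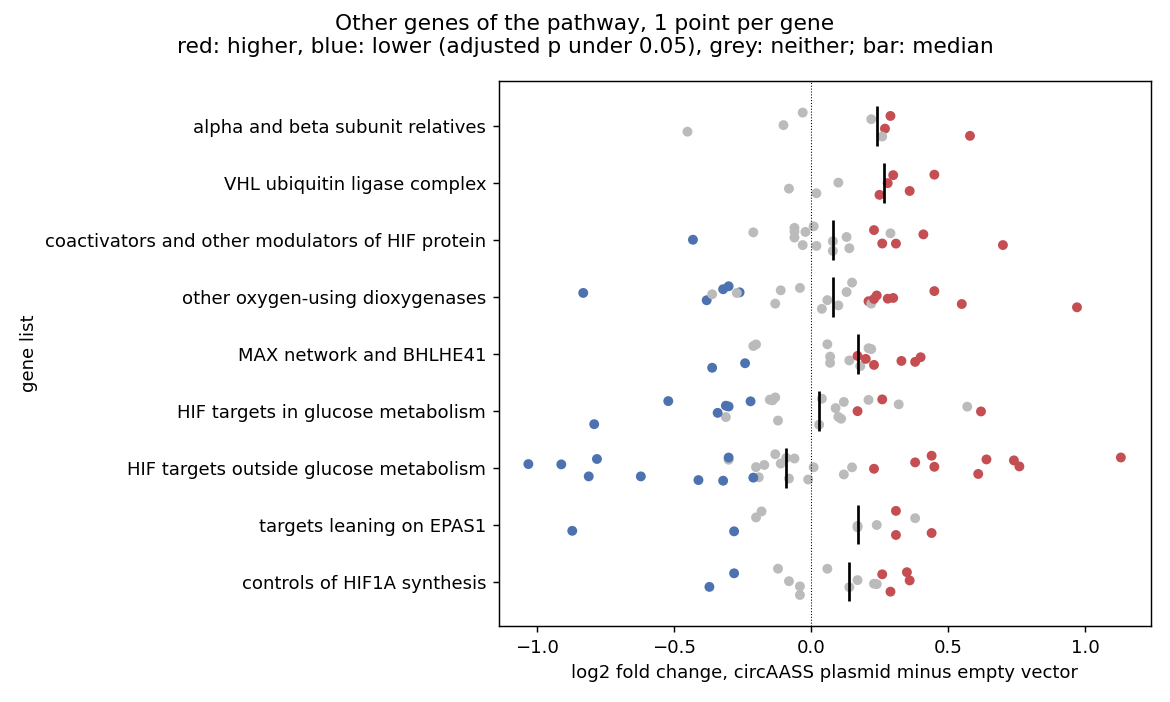
Log2 fold change of each tested gene in the 9 lists (points), red where it rose, blue where it fell (adjusted p under 0.05) and grey where it did not pass; black bars are list medians. The VHL complex has a median of 0.27 and no gene that fell, whereas the targets outside glucose metabolism spread from CA9 (-1.03, a value that ran from -1.46 to -0.28 over the alternatives) to PPP1R3C (1.13) around a median of -0.09.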

How the data were processed

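RNA of 6 HK-2 libraries, 3 per group, was sequenced from a stranded mRNA kit, per the labels' protocols. The authors deposited RPKM per gene. Per the submitters' processing notes the tools were Trimmomatic 0.36, featureCounts, Subread 1.5.1 and edgeR 3.12.1, and the build GRCh38; for the aligner, annotation version and strand setting, the choice is not given in the sources used here. Groups came from sample titles.

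Numbers of reads were derived from RPKM and GENCODE 29 exon lengths (22385 of 24697 genes whole within 0.02 reads in all libraries); for 12622 other genes the smallest length that gave whole reads was used. All 10 members had annotated lengths. Of read numbers from 1 to 20 in genes with annotated lengths, 78.6% were even, as when mates of a pair are counted separately. Names of 28 genes turned into dates were left out. Trimmed-mean factors (30% of ratios, 5% of levels) from these reads were 0.958 to 1.036. limma 3.58.1 (R 4.3.3, trend and robust) tested log2(RPKM + 0.1), two-sided, for 19350 genes that reached 10 reads, taken at the median library size, in 3 libraries, and 15 summed over all; 5304 of these had a length found as above. The test was checked on simulated data. RPKM given are as deposited. Exact permutation tests used scipy 1.17.1. Members, lists and tests were chosen with earlier results of these data known. List genes are named by smallest p, up to 4 per direction, or all where 5 or fewer were called; genes overlapping a member are also named, and likeness is given for the member with the largest change. The alternatives were 2 other scalings, 2 pseudocounts, 2 filters, another prior variance, a replicate block and each library left out. Where a called gene named in the text shares over 20% of its exon bases with others, this is given. KDM4A (48.5% shared) and DDIT4 (41.2%) are counted among the list genes that rose without being named there, and their reads are uncertain too. The level of 1 proximal tubule marker is not reported here.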

Additional observations from a re-analysis of the deposited data

How the results depend on the processing

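The 5 calls among the 10 genes held under every alternative except for EGLN1, which made the count 4 with library size alone and 4 when circAASS library 3 or either of empty-vector libraries 1 and 2 was left out (4 to 5 over the fits that left out a library). Library size alone gave 2159 higher and 4023 lower genes in place of 3091 and 3152, and moved the median of all genes from -0.01 to -0.08. Leaving out a library gave 4133 to 5674 called genes and 42 to 63 called list genes, the lowest without empty-vector library 2. VHL turned its sign with library size alone (-0.04) and without circAASS library 1 (-0.02; -0.02 to 0.07 with each library left out in turn). The difference in the HIF1A share of alpha subunit RPKM, 3.36 points, was 4.46 with reads not divided by length and 3.01 to 3.77 with a library left out; that construction weights genes by length. The EGLN1 share difference ran from -0.254 to 1.62, that of EGLN2 from -1.67 to 0.155 and that of EGLN3 from 0.0397 to 0.102. The repeat numbers did not pair the libraries: deviations of same-numbered libraries correlated at -0.01, -0.02 and 0.02, and not every library correlated best with its own number. With the replicate block 5428 genes and all 5 of the called members passed. EGLN3, at 2 to 12 reads per library, was below the depth at which a difference can be read.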
